A study of Mus musculus with 82 samples.

Results

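The genomic sites described are those where GFP-tagged Brachyury (BraGFP) was enriched and no tagged form of Eomes was listed. They are the peaks of the deposited BraGFP list, on assembled chromosomes and with repeated positions dropped, that shared not 1 base with any peak of the lists for EoGFP, EoV5 or EoVP16. Of 27588 BraGFP peaks, 16553 met that rule, which is 60.0% (95% Wilson interval 59.4 to 60.6%). Another 2952 peaks (10.7%) overlapped an EoV5 or EoVP16 peak but no EoGFP peak, and 8083 (29.3%) overlapped an EoGFP peak. The 11035 peaks of those 2 classes together are called peaks with an Eomes list. The members were chosen by the measured peak calls themselves, as presence or absence in the 4 lists, so that split is a description and not a result. Peak widths, positions and neighbouring genes did not enter the rule, except that a wider peak has more bases in which an overlap can fall.

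All 4 constructs were expressed from a doxycycline-inducible transgene in A2lox.Cre mouse embryonic stem cells of the genotype labelled dKO, lacking both Eomes and Brachyury, so that the tagged protein was the source of the factor studied. The dKO+BraGFP cells carried Brachyury fused to GFP, the dKO+EoGFP cells Eomes fused to GFP, the dKO+EoV5 cells Eomes with the short V5 epitope, and the dKO+EoVP16 cells an Eomes construct joined to the viral VP16 activation domain. The cells grew as embryoid bodies, floating aggregates that model early germ layer formation, with activin A at 30 ng/ml and doxycycline, and were taken on day 5. Chromatin was cross-linked with disuccinimidyl glutarate and formaldehyde and precipitated with anti-GFP (2 libraries each for BraGFP and EoGFP) or anti-V5 (1 library each for EoV5 and EoVP16). Each construct has 1 peak list, so there was no replicate list against which to set a difference between constructs, and intervals given here cover counting error only. An ectopic transgene level and the absence of both endogenous factors limit these cells as a model of the embryo.

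Brachyury, the product of the T gene, and Eomes are T-box transcription factors that recognise similar short DNA sequences. Eomes acts early in the primitive streak and is required for definitive endoderm and anterior mesoderm, including the cardiac lineage. Brachyury is required for posterior mesoderm and the notochord, and in the tail bud it works together with Wnt and FGF signalling to keep axial progenitors and to form presomitic mesoderm, the tissue that segments into somites.

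A peak in no Eomes list had passed the BraGFP threshold, a pileup of 40 fragments as the list's name gives it, and had no peak above 120 in EoGFP, 60 in EoV5 or 36 in EoVP16. Absence from a list is therefore absence above a height that differed between constructs. The EoGFP, EoV5 and EoVP16 lists held 30129, 38193 and 36203 peaks on assembled chromosomes. Total reads and the height of each BraGFP peak were not analysed here, so the depth behind each site is unknown and width is the only measure of size available for it.

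The promoters of Msgn1, a transcription factor that directs presomitic mesoderm formation, and of Tcf7l1, a Tcf/Lef family repressor of Wnt target genes, lay inside BraGFP peaks with no Eomes list and are shown because they head the loci described further on. The promoters of Fam111a, a protease, Pth1r, the parathyroid hormone receptor, and Gng4, a G protein gamma subunit, are shown because they are the ones in the 3 widest such peaks that hold the 6-base T-box core before the start of transcription. Each line gives the 250 bases before the start of transcription, from RefSeq on GRCm38.p6 and read in the direction of transcription. Capitals mark the T-box core GGTGTG, the Tcf/Lef motif CTTTGAT and the GC box GGGCGG, each on either strand.

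Msgn1, chr12:11208949-11209198, minus strand: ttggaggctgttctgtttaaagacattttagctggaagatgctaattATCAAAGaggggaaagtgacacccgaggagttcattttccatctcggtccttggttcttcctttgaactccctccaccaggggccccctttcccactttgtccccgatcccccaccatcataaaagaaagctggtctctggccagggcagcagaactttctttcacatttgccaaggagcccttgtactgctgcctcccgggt
Tcf7l1, chr6:72789046-72789295, minus strand: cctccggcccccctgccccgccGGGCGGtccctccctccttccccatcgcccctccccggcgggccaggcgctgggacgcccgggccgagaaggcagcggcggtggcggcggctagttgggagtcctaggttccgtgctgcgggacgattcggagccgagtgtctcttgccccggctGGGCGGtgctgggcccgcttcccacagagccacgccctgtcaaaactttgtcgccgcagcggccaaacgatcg
Fam111a, chr19:12573260-12573509, plus strand: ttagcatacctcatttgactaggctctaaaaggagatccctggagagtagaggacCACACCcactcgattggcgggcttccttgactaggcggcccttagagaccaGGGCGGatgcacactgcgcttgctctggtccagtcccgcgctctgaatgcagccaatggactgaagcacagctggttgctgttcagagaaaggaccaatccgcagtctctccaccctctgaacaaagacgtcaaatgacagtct
Pth1r, chr9:110743687-110743936, minus strand: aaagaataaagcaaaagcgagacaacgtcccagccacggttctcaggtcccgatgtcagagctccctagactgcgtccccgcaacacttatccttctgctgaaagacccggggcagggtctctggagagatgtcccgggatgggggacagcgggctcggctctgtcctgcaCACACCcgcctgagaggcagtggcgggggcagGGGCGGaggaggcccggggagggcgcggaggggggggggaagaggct
Gng4, chr13:13783809-13784058, plus strand: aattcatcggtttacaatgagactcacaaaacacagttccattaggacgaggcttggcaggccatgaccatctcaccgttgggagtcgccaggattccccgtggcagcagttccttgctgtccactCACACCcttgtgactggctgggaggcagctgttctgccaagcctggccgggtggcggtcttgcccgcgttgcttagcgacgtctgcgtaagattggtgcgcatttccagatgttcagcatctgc

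The Msgn1 stretch held 1 Tcf/Lef match, 203 bases before the start, and no T-box core. The Tcf7l1 stretch was 73.6% G and C, held GC boxes 228 and 73 bases before the start, and had neither of the other motifs. The T-box core lay 195 bases before the start of Fam111a, 79 before that of Pth1r and 124 before that of Gng4. A match is a run of letters, and no match says only that these letters are not in the window.

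BraGFP peaks in no Eomes list lay away from gene ends. Only 3.31% of them (548 peaks) had their midpoint within 1 kb of either end of a protein-coding gene, against 35.3% (3896 peaks) of those with an Eomes list, a difference of -32.0 percentage points (95% Newcombe interval -32.9 to -31.1). Inside a coding gene and farther than 1 kb from its ends lay 53.8%, against 34.6%, a difference of 19.2 points (18.0 to 20.4). Outside coding genes lay 42.9%, against 30.1%, a difference of 12.8 points (11.7 to 13.9). Peaks that only EoV5 or EoVP16 shared fell between the others, with 15.3% at gene ends, and those that EoGFP shared had 42.6% there.

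**Figure D1:**
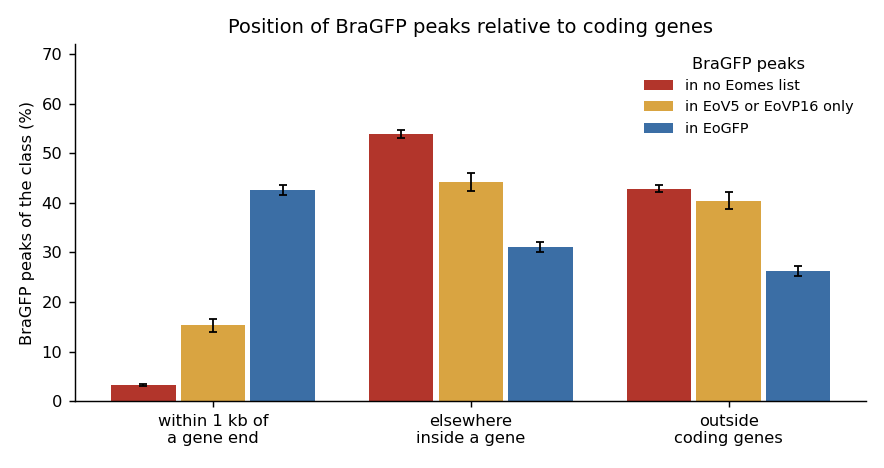
Share of BraGFP peaks by position relative to coding genes, with the percentage of each class on the vertical axis and 95% Wilson intervals as bars. Peaks in no Eomes list (16553) had 3.31% at gene ends, peaks in EoV5 or EoVP16 only (2952) 15.3% and peaks in EoGFP (8083) 42.6%.

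The difference at gene ends was at starts of transcription. Strand and starts came from the RefSeq promoter table, which holds 17492 of 21887 coding genes and covers 15862 of the 16553 peaks by chromosome. Distances to a start therefore run to the nearest one in that table, and a nearer start can be missing. By these starts, 1.44% of peaks in no Eomes list lay within 1 kb of a coding start, against 33.1% of those with an Eomes list (difference -31.6 points, -32.6 to -30.7). Within 1 kb of the opposite end of a gene, where transcription finishes, lay 1.70% against 2.40%, a difference of -0.71 points (-1.07 to -0.36). The median distance to the nearest coding start was 54.0 kb, with quartiles of 18.3 and 155 kb, for peaks in no Eomes list and 15.9 kb, with quartiles of 0.314 and 77.8 kb, for peaks with an Eomes list. Beyond the nearest 1 kb the classes lay closer to each other. In the stretch from 10 to 1 kb upstream of a start lay 6.11% of peaks in no Eomes list, against 5.83% of peaks with an Eomes list, and in the stretch from 1 to 10 kb downstream lay 7.49% against 5.85%. From 10 to 50 kb downstream lay 19.9% against 12.1%. A position upstream of the nearest start was held by 40.6% of peaks in no Eomes list and 43.7% of those with an Eomes list.

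**Figure D2:**
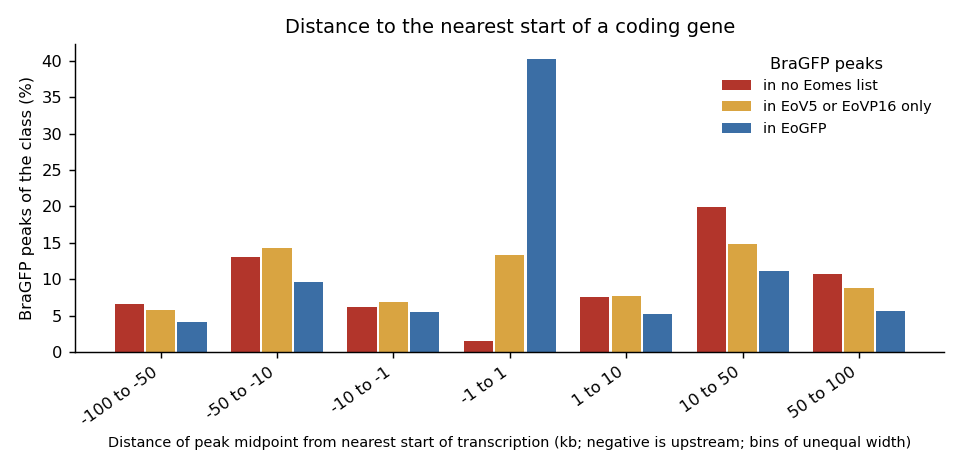
Distance of BraGFP peak midpoints from the nearest coding start in the RefSeq promoter table, in kb with negative values upstream, as the percentage of each class in bins of unequal width. The bin around the start held 1.44% of peaks in no Eomes list, 13.3% of those in EoV5 or EoVP16 only and 40.3% of those in EoGFP.

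Peaks with their midpoint anywhere in a coding gene sat in long genes. The median length of those genes was 129 kb for 9191 peaks in no Eomes list, against 61.1 kb for 6577 with an Eomes list. Both sets include midpoints within 1 kb of a gene end, which were more frequent with an Eomes list. Lengths without such peaks were not compared. Long genes have more bases in which a peak can fall. More than 50 kb from any coding gene lay 19.8% of peaks in no Eomes list (19.2 to 20.4%), against 11.3% (10.7 to 11.9%). The X chromosome held 253 peaks in no Eomes list of its 359 BraGFP peaks, or 70.5%, with a Wilson interval from 65.6 to 75%. Chromosome 7, with 54.8%, had the lowest share among the autosomes, and chromosome 18, with 64.8%, the highest.

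BraGFP peaks in no Eomes list were narrower. Their median width was 496 bp (quartiles 378 and 682), against 815 bp (551 and 1170) for peaks with an Eomes list, 650 bp for those in EoV5 or EoVP16 only and 875 bp for those in EoGFP. Among the narrowest 10% of all BraGFP peaks, 84.1% were in no Eomes list, and among the widest 10%, 16.6%. In each of the 10 width deciles a smaller share of the peaks in no Eomes list lay at gene ends. In the narrowest 10%, 3.02% of peaks in no Eomes list lay at gene ends, against 5.02% of those with an Eomes list, and in the widest 10%, 6.99% did, against 58.2%. With both classes given the same distribution of widths, the difference at gene ends was -22.5 points (-23.3 to -21.6) and that inside genes 15.6 points (14.2 to 16.9).

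**Figure D3:**
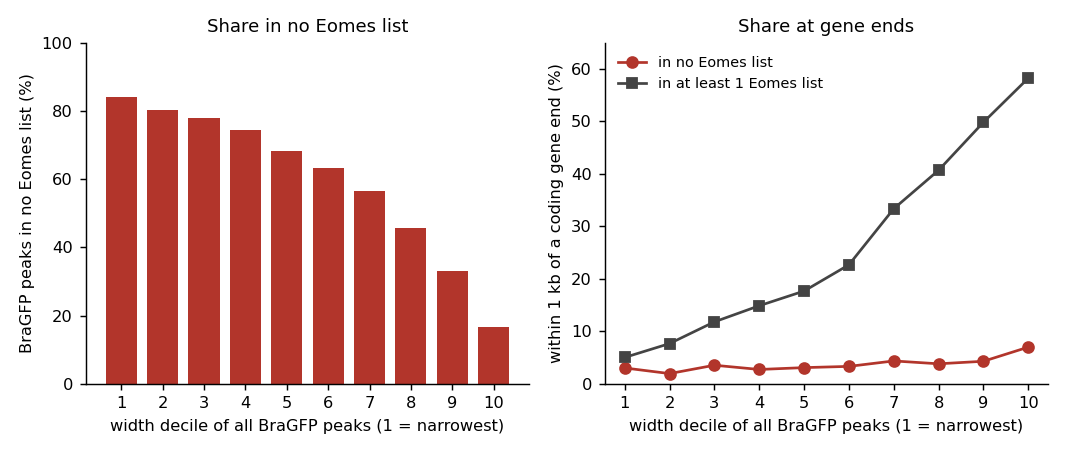
Left, share of BraGFP peaks in no Eomes list by width decile, from 84.1% in the narrowest to 16.6% in the widest. Right, percentage within 1 kb of a coding gene end by width decile, for peaks in no Eomes list (6.99% in the widest decile) and peaks with an Eomes list (58.2%).

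The nearest Eomes peak was usually some kilobases away. The gap was 11.4 kb in the median, with quartiles of 4.19 and 26.9 kb. It was under 100 bp for 54 peaks, under 250 bp for 230 (1.39%), under 1 kb for 1186 (7.16%), under 10 kb for 7604 (45.9%) and 50 kb or more for 1926 (11.6%). On the other side of the rule, Eomes peaks covered at least 50% of the bases of 97.1% of the shared BraGFP peaks. Just outside the rule were 7 shared peaks with at most 50 bases covered, with a median width of 420 bp. The 230 peaks just inside it, with a gap under 250 bp, had a median width of 520.5 bp. Of those 230, 131 had an EoV5 peak within 250 bp and 106 an EoVP16 peak. The highest pileup among such Eomes peaks was taken for each, with medians of 96 fragments in EoV5 and 53 in EoVP16. Over all single peaks of the whole lists the medians were 99 and 54.

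At 10 kb and without weighting for width, the share with a close neighbour did not differ from that of peaks with an Eomes list beyond counting error. Another BraGFP peak of either class lay within 10 kb of 33.7% of peaks in no Eomes list and of 34.1% of those with an Eomes list (difference -0.44 points, -1.58 to 0.70). Against peaks in EoV5 or EoVP16 only the difference was -2.93 points (-4.82 to -1.06), and against those in EoGFP 0.47 points (-0.78 to 1.72). With peaks in no Eomes list and peaks with an Eomes list given the same width distribution, the difference was 1.32 points (0.03 to 2.60). Within 50 kb, without that weighting, it was -1.68 points (-2.66 to -0.70). Chained over gaps of at most 10 kb, the peaks in no Eomes list gave 12606 that stood alone, 1522 pairs, 235 groups of 3, 42 of 4 and 6 of 5. The groups of 5 lay inside Tnik, Uspl1, Tcf7l1, Stxbp6 and Xpnpep1, and 36.2 kb from Gm30733, and none of the 6 held a BraGFP peak with an Eomes list.

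Promoter windows, from 250 bases before to 50 after a coding start in the RefSeq promoter table, were seldom overlapped. Of the peaks in no Eomes list, 140 of 15862 (0.883%) overlapped one, against 3349 of 10660 (31.4%) with an Eomes list. The 159 windows so overlapped, of 140 genes, had a median G and C content of 54.3%, against 62.3% for the 4239 windows, of 3685 genes, under peaks with an Eomes list and 56.3% over all 21263 windows. Windows of 1 gene can overlap each other, and the intervals below count them as separate. They held a median of 8 CpG dinucleotides, against 23 under peaks with an Eomes list and 13 over all windows. The GC box GGGCGG was in 34.0% of windows under peaks in no Eomes list, against 69.2% (difference -35.3 points, -42.3 to -27.5), with 46.2% of all windows. The E-box CACGTG, the core bound by many basic helix-loop-helix factors, was in 5.66% against 11.2% (difference -5.52 points, -8.35 to -0.69), with 7.84% of all windows.

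For the T-box letters the intervals of the difference included 0. The core GGTGTG was in 31 of 159 windows (19.5%) under peaks in no Eomes list and in 763 of 4239 (18.0%) under peaks with an Eomes list, a difference of 1.497 points (-4.04 to 8.44), with 18.4% of all windows. The longer T-box sequence TCACACCT, which contains that core on its other strand, was in 0 of 159, which allows a share of up to 1.89% by a limit of 3 counts and 2.36% by the Wilson interval, against 43 of 4239 (1.01%), with 1.15% of all windows. The Tcf/Lef motif CTTTGAT was in 5 windows (3.14%), against 2.43%, with 3.22% of all windows. These windows stand for fewer than 1 in 100 of the peaks in no Eomes list, and the sequence of the other peaks was not analysed here.

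At the gene level, 12476 of 21887 coding genes (57%) had at least 1 BraGFP peak in no Eomes list within 50 kb of their span, and that is the background for every count below. Within 10 kb the count was 6866 genes (31.4%), and any BraGFP peak lay within 50 kb of 16740 genes (76.5%). Of all coding genes, 3521 (16.1%) had BraGFP peaks within 50 kb of which every one was in no Eomes list, and 4264 (19.5%) had BraGFP peaks that all overlapped an Eomes list. Genes with a peak in no Eomes list within 50 kb had a median length of 24.4 kb, against 10.3 kb for genes without one.

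Of 161 developmental genes in 11 lists, 108 (67.1%, 59.5 to 73.9%) had a BraGFP peak in no Eomes list within 50 kb, against the 57% of all coding genes and 28 of 56 (50%, 37.3 to 62.7%) in 4 lists unrelated to gastrulation. Any BraGFP peak lay within 50 kb of 142 of the 161 (88.2%), against 76.5% of all coding genes, so BraGFP peaks as a whole were also more frequent near these genes. Of the 477 distinct BraGFP peaks near them, 234 (49.1%, 44.6 to 53.5%) were in no Eomes list, a smaller share than the 57.6% of the 23069 peaks within 50 kb of any coding gene. Near the unrelated genes it was 50 of 114 peaks (43.9%, 35.1 to 53.0%), so a smaller share was not particular to the developmental genes. Within 10 kb, 52 developmental genes (32.3%) and 14 unrelated genes (25%) had such a peak, against 31.4% of all coding genes. By genes with such a peak, the highest lists were FGF and ERK feedback (12 of 14), the Wnt pathway (12 of 15), cytoskeleton, adhesion and EMT (11 of 14), presomitic mesoderm and segmentation (12 of 16) and tail bud and axial progenitors (12 of 16). Node and notochord had 10 of 15 and primitive streak 9 of 15. Definitive endoderm (8 of 14), anterior and cardiac mesoderm (8 of 14), pluripotency and epiblast (8 of 15) and neural plate (7 of 15) were near or below the background. Gene length differed between lists, with medians of 38.2 kb for the Wnt pathway and 38.7 kb for adhesion and EMT, 15.3 kb for FGF and ERK feedback and 5.03 kb for presomitic mesoderm, against 17.2 kb over all coding genes. By the share of their BraGFP peaks that were in no Eomes list, the developmental lists had another order. The Wnt pathway (63.6%) and neural plate (60%) were highest among them, against the 57.6% near any coding gene. FGF and ERK feedback had 52%, tail bud 53.1% and adhesion and EMT 46.8%, and presomitic mesoderm was lowest with 19 of 54 (35.2%). By that share the unrelated hepatocyte list, with 10 of 15 peaks (66.7%), stood above every developmental list. Skeletal muscle had 54.8%, cytosolic ribosomal proteins 41.3% and photoreceptor 21.7%. By genes with such a peak, the unrelated hepatocyte list had 6 of 14, photoreceptor 4 of 14, skeletal muscle 9 of 14 and cytosolic ribosomal proteins 9 of 14. With 14 to 16 genes a list, a share can move by several genes through counting alone, and 8 of the 11 developmental lists had the same median as all coding genes, 1 such peak per gene.

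**Figure D4:**
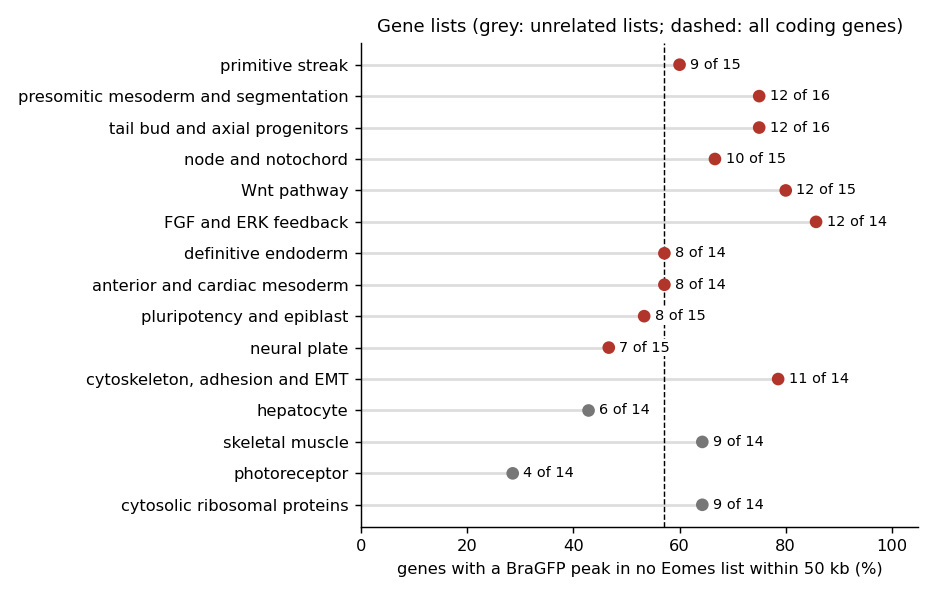
Percentage of the genes of each list with a BraGFP peak in no Eomes list within 50 kb, with developmental lists in red and unrelated lists in grey. The dashed line is the 57% of all coding genes. FGF and ERK feedback stood highest with 12 of 14 and photoreceptor lowest with 4 of 14.

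In the presomitic mesoderm, Msgn1 had 6 BraGFP peaks within 50 kb, of which 3 were in no Eomes list. The widest of the 6, 1820 bp at chr12:11208402-11210221 on GRCm38, lay over the start of transcription shown above, and the nearest Eomes peak was 9.50 kb away. The other 2 lay 15.98 and 22.7 kb upstream, with widths of 378 and 663 bp. The one at 22.7 kb was 0.269 kb from an Eomes peak, so it stands at the edge of the rule, whereas the peak at the start does not. Meox1, a homeobox factor of the somites, had 3 such peaks of 4, all within 10 kb of the gene and 505 to 1008 bp wide. Notch1, the receptor of the segmentation clock, had 2 of 5, of which 1 was only 0.006 kb from an Eomes peak. Hes7, the clock's oscillating repressor, which was chosen after its values were seen, had 1 of 6, a peak of 2175 bp only 0.547 kb from an Eomes peak. Tbx6 had 0 of 2 and Cer1 0 of 1, and Lfng and Pcdh8 had no BraGFP peak within 50 kb.

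Among Wnt pathway genes, Tcf7l1 had 11 of its 13 BraGFP peaks within 50 kb in no Eomes list. A peak of 1345 bp at chr6:72788982-72790326 covered its start, 12.1 kb from the nearest Eomes peak. Inside the gene, 5 such peaks of 539 to 1582 bp stood within 23.3 kb of each other (chr6:72676545-72699843). Eomes peaks lay between them without touching them, the nearest 0.750 kb from the 857-bp peak. Tcf7l2, another Tcf/Lef factor, had 6 of 7, all inside the gene, the widest 1535 bp. Lgr5, a receptor for R-spondin and itself a Wnt target, had 4 of 5. Sfrp5 had 0 of 2 and Tcf7 0 of 1, and Fzd10 had no BraGFP peak within 50 kb.

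**Figure D5:**
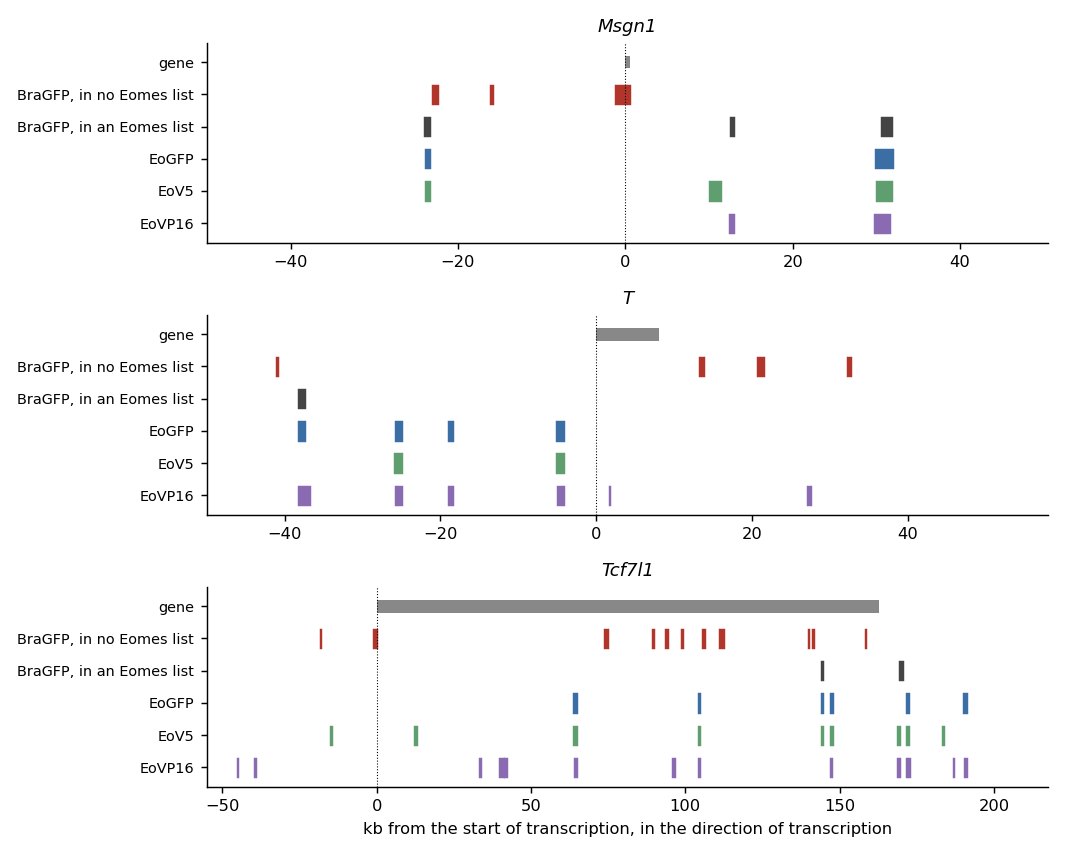
Peaks near Msgn1, T and Tcf7l1 in kb from the start of transcription, in the direction of transcription, with the gene in grey. The BraGFP peaks in no Eomes list (red) include those over the starts of Msgn1 and Tcf7l1. Downstream of T there are 3 of them and no BraGFP peak with an Eomes list.

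T itself had 4 of 5 BraGFP peaks in no Eomes list. Of these, 3 lay past the end of the gene, at 5.45, 13.0 and 24.4 kb from it, with widths of 542, 901 and 502 bp, and 1 of 298 bp lay 41.0 kb upstream. Most peaks of the Eomes lists within 50 kb lay upstream, with 2 of EoVP16 inside and past the gene as the exceptions, and no BraGFP peak overlapped the group about 5 kb before the start that EoGFP, EoV5 and EoVP16 all listed. Msgn1, also used for rescue in the series, had the 3 of 6 given above, and the other rescue factors had at most 1 such site within 50 kb. Eomes had 1 of 4, which was 0.136 kb from an Eomes peak, and Mesp1, an early cardiac mesoderm factor, 1 of 4. Foxa2 had 0 of 2 and Six2 0 of 1, and Mixl1 had no BraGFP peak within 50 kb.

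In the primitive streak list 1 of 15 genes had such a peak within 10 kb, and in the FGF and ERK feedback list 6 of 14, against 31.4% of all coding genes. Neither count was particular to its list. Definitive endoderm had 1 of 14, while node and notochord had 8 of 15, the Wnt pathway 7 of 15 and adhesion and EMT 7 of 14. The median gene length was 6.45 kb in the primitive streak list and 15.3 kb in the FGF and ERK feedback list. Fgf8, an FGF ligand of the streak and tail bud, had 3 of 6, which lay 13.5 to 19.3 kb from the gene, while its 2 peaks within 10 kb were both with an Eomes list. Fgf4 had 3 of 4 and its neighbour Fgf3 3 of 4, and since these genes lie side by side they share peaks. Dusp6, a phosphatase that dampens ERK, had 4 of 5, and the exception, 2928 bp wide, was the peak over its start. Etv5, an FGF-induced transcription factor, had 3 of 5, of which 2 lay inside the gene. Etv4 and Fgfr1 had 0 of 3 each.

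In the tail bud list, Epha1, an ephrin receptor, had 6 of 7, of which 3 were 930 to 1088 bp wide and lay 17.1 to 48.1 kb from the gene. Wnt5b had 5 of 10 and Gdf11, a TGF-beta family ligand that controls trunk-to-tail transition, 3 of 5. The Gdf11 peak of 743 bp lay 0.569 kb before its start. Wnt5a had 0 of 2, Cyp26a1 and Fgf17 had 0 of 1 each, and Sp8 had no BraGFP peak within 50 kb. In the node and notochord list, Sox5 had 10 of 14 and Sox6 10 of 12, both factors of notochord sheath and cartilage and both very long genes (954 and 570 kb). Fam183b, a gene of ciliated cells, had 3 of 3. Krt18 had 0 of 5, Dand5 0 of 3, and Chrd and Foxd4 0 of 1 each. Shh had no BraGFP peak within 50 kb.

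The leading genes of the lists near or below the background had 1 to 4 such peaks, against an upper decile that began at 3 over all coding genes. Definitive endoderm was led by Cldn6 (2 of 4), Epcam (2 of 3) and Gata6 (2 of 3), and anterior and cardiac mesoderm by Myocd (4 of 8), Tbx5 (4 of 5) and Gata5 (1 of 1). Pluripotency and epiblast was led by Fgf5 (2 of 4), Klf4 (2 of 3) and Prdm14 (2 of 3). Neural plate was led by Pax3 (4 of 6), Irx3 (3 of 5) and Lhx2 (3 of 5). In the adhesion and EMT list, Epb41l5, needed for epithelial-to-mesenchymal transition at the streak, had 6 of 9, all inside the gene, Zeb2, an EMT repressor of E-cadherin, 5 of 11, 1 of them 0.177 kb from an Eomes peak, and Cdh2, N-cadherin, 4 of 10.

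The widest peaks in no Eomes list were far above the class median of 496 bp. The widest, 3265 bp, lay 8.16 kb from Gng2, a G protein gamma subunit, and all 5 BraGFP peaks within 50 kb of that gene were in no Eomes list. It was 0.523 kb from an Eomes peak. Those at Cdk6 (2854 bp), Fam111a (2724 bp) and Ranbp3l (2449 bp) overlapped promoter windows, and the nearest Eomes peaks were 10.4, 18.0 and 100 kb away. The others of the 10 widest lay nearest to Ulbp1, Kif6, Pmepa1, Armc1, Atp2a2 and Tle4, with widths of 2836, 2834, 2496, 2476, 2458 and 2430 bp, 1 of them inside its gene (Kif6) and 5 of them 17.2 to 195 kb from theirs. The one nearest to Atp2a2 was 0.125 kb from an Eomes peak, so it stands at the edge of the rule.

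The genes with the highest counts were long. Maml2 and Ptprg each had 18 such peaks of 24, Auts2 17 of 29, Lrmda 16 of 19, and Frmd4a (of 22), Macrod2 (of 22) and Rbfox1 (of 20) 15 each. Atxn1, Mcc and Tenm4 had 14 each. These 10 genes span 387 to 1998 kb. Among genes under 50 kb whose BraGFP peaks were all in no Eomes list, Prss38 had 7, and Gfral, Gm46963, Higd1c and Kcnj15 had 6 each. Around Gfral the 3 Eomes lists together had 1 peak within 50 kb, in EoVP16. Around Higd1c, EoGFP had 6, EoV5 2 and EoVP16 6, so the gene had both kinds of site without overlap.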

How the data were processed

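The samples used were day 5 ChIP-seq of dKO cells with doxycycline, grouped by construct as the titles give them. The series' libraries for RNA-seq, ATAC-seq and other ChIP targets were not analysed here. Per the submitters' processing notes, Bowtie2 2.3.4, MACS2 2.1.1.20160309.4 and bedtools 2.27.0 were among the tools and the build was mm10/GRCm38. How the 2 libraries of a construct were joined is not given in the sources used here. The authors' deposited BraGFP and EoGFP lists hold positions and names only. The deposited EoV5 and EoVP16 lists also hold pileup, a signal in fragments at the summit, with fold enrichment (a ratio) and −log10 p and q values. Of these the pileup was used, to describe peaks and to rank them within a list, and the fold and −log10 columns of the authors were not used. The other deposited columns are positions (start, end, length, summit).

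Rows on unplaced sequences (4 to 7 a list) and repeated positions (4 to 46 a list) were dropped. Positions were read as 1-based, since length was end minus start plus 1 in EoV5 and EoVP16. Overlap meant 1 shared base. Genes were the protein-coding spans of the RefSeq table for GRCm38.p6, and starts and strand came from its promoter table, which holds 17492 of 21887 coding genes and none on chromosome 18. Distances ran from peak midpoints. Shares have 95% Wilson intervals and differences 95% Newcombe intervals, and peaks are not independent replicates. The planned motif count over whole peaks needed a genome and was run on promoter windows instead. The text names 7 rescue factors, in each list the 3 genes holding most BraGFP peaks of no Eomes list in a 50 kb window, the closest coding gene to each of the 10 widest such peaks, the 10 genes with the highest counts, and the 5 highest under 50 kb long that lack any shared peak. Pth1r, Gng4, the genes of the groups of 5, the microRNAs and the genes given as having none were picked with values in view. The members and gene lists were chosen with earlier results of these data known. Code was checked on simulated intervals and against bedtools 2.31.1, with Python 3.11.15 and pandas 2.3.3.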

Additional observations from a re-analysis of the deposited data

How the results depend on the processing

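No paired analysis was possible because each construct has 1 peak list and its columns carry no replicate number, and for the same reason no replicate could be left out. The share of BraGFP peaks in no Eomes list, 60.0%, was 59.2% with Eomes peaks extended by 250 bp on each side, 55.7% with 1 kb, 61.2% when Eomes peaks had to cover 50% of the BraGFP peak, 61.2%, 62.2% and 65.5% with EoGFP, EoV5 or EoVP16 left out, 65.9% with the taller 50% of EoV5 and EoVP16, and 43.1% among the wider 50% of BraGFP peaks. The median width difference, -319 bp, was -281 bp with 1 kb of extension, -305 bp with 50% cover and -227 bp among wider peaks. The differences at gene ends and inside genes kept their sign, with intervals clear of 0, under every alternative run, from -22.5 to -40.4 points and from 15.6 to 23.6 points. The share with a neighbour within 10 kb did not keep its sign. Its difference of -0.44 points was -3.89 with 1 kb of extension and -1.68 at 50 kb, but 0.013 with 50% cover, 2.56 among wider peaks and 1.32 at equal widths, and the cause was not tested. The 12476 genes were 6866 at 10 kb and 6674 with wider peaks, and the 108 developmental genes were 52 at 10 kb. The motif difference for TCACACCT, -1.01 points with an interval that includes 0, was 1.497 for the shorter GGTGTG. The alternatives with starts in place of either gene end and with windows wholly inside a peak were chosen after seeing the data. The count over whole peaks was not run, for want of a genome.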

Other observations

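MicroRNA genes were counted without a background of the bases that the peaks cover, so the counts are not read as few or many. Of 1005 annotated hairpins, 6 were overlapped by a BraGFP peak in no Eomes list (Mir135b, Mir488, Gm23363, Mir5620, Mir344g and Mir148b) and 24 by a BraGFP peak with an Eomes list. Peaks whose nearest coding gene was an olfactory, vomeronasal or trace amine receptor made up 0.344% of those in no Eomes list (57 peaks) and 0.362% of those with an Eomes list (40 peaks), a difference of -0.02 points (-0.17 to 0.12).

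Among the overlap patterns, BraGFP peaks shared with EoV5 alone had 4.35% at gene ends (620 peaks) and those shared with EoGFP and EoV5 but not EoVP16 had 4.47% (716 peaks), near the 3.31% of peaks in no Eomes list. Those shared with EoVP16 alone had 14.9% there (1514 peaks), with EoGFP alone 19.5% (328 peaks), with EoV5 and EoVP16 24.4% (818 peaks), with all 3 lists 45.7% (5969 peaks) and with EoGFP and EoVP16 but not EoV5 58.2% (1070 peaks). Median widths differed too. They were 541 bp with EoV5 alone and 602.5 bp with EoGFP and EoV5 but not EoVP16. For the other patterns, in the order given, they were 652, 798.5, 779, 925 and 839.5 bp. These values were looked up after the position result was seen. The 3 Eomes lists also differ in antibody, threshold and number of libraries. The part of these and of width in the result was not tested.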
